A study of Mus musculus with 7 samples.

Results

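The transcripts described here encode the ribbon, calcium channel and vesicle release proteins of the photoreceptor terminal. The set was defined by name, as the 10 genes Ctbp2, Bsn, Cacna1f, Cacna2d4, Cabp4, Slc17a7, Cplx3, Cplx4, Rims2 and Unc13b, and all 10 were found among the 54532 genes of the deposited table. They were measured by polyadenylated RNA sequencing in 3 Agbl5 knockout, 2 heterozygous and 2 wildtype mouse libraries, and the heterozygous and wildtype libraries together form 4 controls. The series set out to examine what Agbl5, the gene of the tubulin deglutamylase CCP5, does in photoreceptors. Strain, age, how the allele was made, and whether each library came from a separate animal are not given in the sources used here. The p-values therefore measure the spread between these libraries, part of which may be technical. The samples carry the tissue name eyeball, while the RNA extraction text speaks of retina. Values are FPKM, that is fragments scaled by gene length and library size.

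Photoreceptors signal by releasing less glutamate in light and more in darkness. Their terminals hold a plate-like organelle, the synaptic ribbon, which tethers vesicles beside calcium channels of the L type that stay open as long as the cell is depolarised. The scaffold proteins RIBEYE and Bassoon build and anchor the ribbon, RIM2 and Munc13-2 act in vesicle docking and priming, and complexins 3 and 4 act on the fusion machinery in place of the complexins of conventional synapses. Ribbons also occur in bipolar cells, and several of these genes are used by other retinal neurons. The libraries hold whole tissue, in which fewer cells of a type and less RNA per cell cannot be told apart.

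Ctbp2 needs a sequence view before its values, because the gene makes 2 proteins. A start in the upstream part of the gene gives the nuclear corepressor CtBP2, and an internal start gives RIBEYE, the main protein of the ribbon, whose second domain is nearly the whole of CtBP2. In GENCODE mouse release M21 the longest Ctbp2 coding sequence has 988 codons, in the transcript ENSMUST00000169570.7, which starts at position 133015248 on the minus strand of chromosome 7 (GRCm38). The coding sequence of ENSMUST00000033269.14 has 445 codons, and that transcript starts at position 133123367. RefSeq (GRCm38.p6) gives promoter windows of 300 bases, 250 before and 50 after a start, for 2 starts of the gene, and the internal one lies 1 base from the start of the 988-codon transcript. The upstream one has its start at position 133081860. No protein-coding Ctbp2 transcript of GENCODE M21 starts within that window, so it is not the window of ENSMUST00000033269.14. Both are shown 5′ to 3′ on the minus strand. Capitals mark TAATCC on either strand, the core motif of Crx, a homeodomain transcription factor of photoreceptors.

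Ctbp2 internal start, chr7:133015198-133015497, minus strand: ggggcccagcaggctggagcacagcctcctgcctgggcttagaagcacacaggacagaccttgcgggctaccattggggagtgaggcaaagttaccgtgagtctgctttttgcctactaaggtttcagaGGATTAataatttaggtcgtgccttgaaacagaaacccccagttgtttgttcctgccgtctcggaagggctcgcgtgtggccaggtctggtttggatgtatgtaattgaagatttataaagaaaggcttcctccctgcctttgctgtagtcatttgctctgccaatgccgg
Ctbp2 upstream RefSeq start, chr7:133081811-133082110, minus strand: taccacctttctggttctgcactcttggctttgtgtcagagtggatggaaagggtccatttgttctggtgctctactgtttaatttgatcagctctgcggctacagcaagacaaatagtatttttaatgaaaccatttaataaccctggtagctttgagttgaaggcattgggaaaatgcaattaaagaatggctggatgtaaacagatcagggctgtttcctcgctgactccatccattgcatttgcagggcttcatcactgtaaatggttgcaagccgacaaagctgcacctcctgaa

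The internal window held the motif once, on the opposite strand, at position -121 from the start site, and the upstream window did not hold these letters. No other motif was searched. Among 7 windows matched to 6 of the members (Ctbp2, Bsn, Cacna1f, Slc17a7, Cplx3 and Unc13b), this was the only one with the motif, which stood in 7.06% of all 32851 promoter windows. The table of levels gives 1 value per gene, so the FPKM of Ctbp2 below sum the RNAs of both proteins.

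Library quality bears on the levels as follows. The Agbl5 transcript stood at 1.53, 1.73 and 1.26 FPKM in knockout, 4.21 and 5.34 in heterozygous and 9.89 and 8.57 in wildtype libraries, so knockout was lowest and wildtype highest. It fell by 2.03 ± 0.13 on the log2 scale against wildtype (SE; limma, adjusted p = 0.00406), and knockout against heterozygous also passed (adjusted p = 0.0239), while heterozygous against wildtype was at -0.83 and did not (adjusted p = 0.974). The wildtype call was lost with the replicate block (adjusted p = 0.0841), without the 2 libraries rich in lens RNA, knockout 1 and heterozygous 1 (0.0518), and without wildtype 1 (0.0768) or wildtype 2 (0.0728). The heterozygous call was lost with the block (0.242), without both lens-rich libraries (0.221), without a filter (0.0609), with the Y-linked covariate (0.0517) and without any 1 library (0.0701 to 0.0944). All knockout values lay below all controls. Exons of Ost4 on the opposite strand cover 9.60% of the Agbl5 exons, and the libraries carry no strand. The part of Ost4 reads in the Agbl5 values was not tested. Whole reads recovered from the FPKM summed to between 11929274 and 13961380 per library. The 10 members held between 3072 and 18206 reads each in every library, for which the counting error alone is 1.80% to 0.741%. Knockout 1 and heterozygous 1 carried lens RNA, with 7164 and 4070 FPKM summed over 15 lens markers, against 6.61 to 53.1 FPKM in the other 5 libraries. Of the lens markers, 2 were at 0 in knockout 2 and 1 each in heterozygous 2 and wildtype 1. The 10 markers of pigment epithelium and melanocytes also varied between libraries. They summed to 273, 82.8 and 161 FPKM in knockout, 239 and 128 FPKM in heterozygous and 45.9 and 157 FPKM in wildtype libraries. The part of this tissue in the member levels was not tested. The 4 Y-linked genes summed to 0 FPKM in knockout 3 and wildtype 2 and to between 51.7 and 63.1 FPKM elsewhere. Knockout 3 and wildtype 2 thus came from other animals than the remaining libraries of their genotypes. Both heterozygous libraries held Y-linked RNA, so the genotypes were not matched in this respect. All 20 rod and 12 cone markers were present in every library, with rod sums of 12772 to 13348 FPKM in knockout libraries against 14005 to 15013 FPKM in controls, and cone sums of 572 to 603 FPKM against 590.4 to 689.9 FPKM.

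No ribbon synapse member passed the test in any genotype comparison. All 10 passed the filter of a mean of at least 1 FPKM, and limma was run on log2(FPKM + 1) over 15472 genes with Benjamini-Hochberg adjustment and a threshold of 0.05. For knockout against wildtype 0 of 10 members were called, beside 0.323% of all tested genes, and 0 reached an unadjusted p under 0.05, beside 7.50% of all genes. For knockout against heterozygous 0 were called (0.317% of all genes) and Ctbp2 alone had an unadjusted p under 0.05, as did 1859 of the tested genes. Against all 4 controls 0 were called (0.614%) and 1, again Ctbp2, had an unadjusted p under 0.05 (12.2%). For heterozygous against wildtype 0 members were called (0.00%) and 0 had an unadjusted p under 0.05, as did 619 of the tested genes. With voom on recovered reads 0 members were called in each comparison.

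The 95% intervals show how precisely each change was estimated on the FPKM scale, and they are not hard limits. Over the 10 members the changes for knockout against wildtype ran from -0.14 to 0.15 on the log2 scale, with a median of 0.02, where all tested genes had a median of -0.00. On the TPM scale the median gene was at -0.16 in this comparison, and the 6 members with positive changes (Ctbp2, Bsn, Cacna2d4, Cabp4, Slc17a7 and Cplx4) stood between -0.15 and -0.0056, below 0 and above that median. On the FPKM scale, the 95% intervals of all 10 members against wildtype reached from -0.34 to 0.39, or 0.793-fold to 1.31-fold. They were not adjusted for the number of genes. The intervals against all controls reached from 0.846-fold to 1.37-fold, and those against heterozygous libraries from 0.851-fold to 1.54-fold. In each of these comparisons the widest interval belonged to Cabp4.

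**Figure D1:**
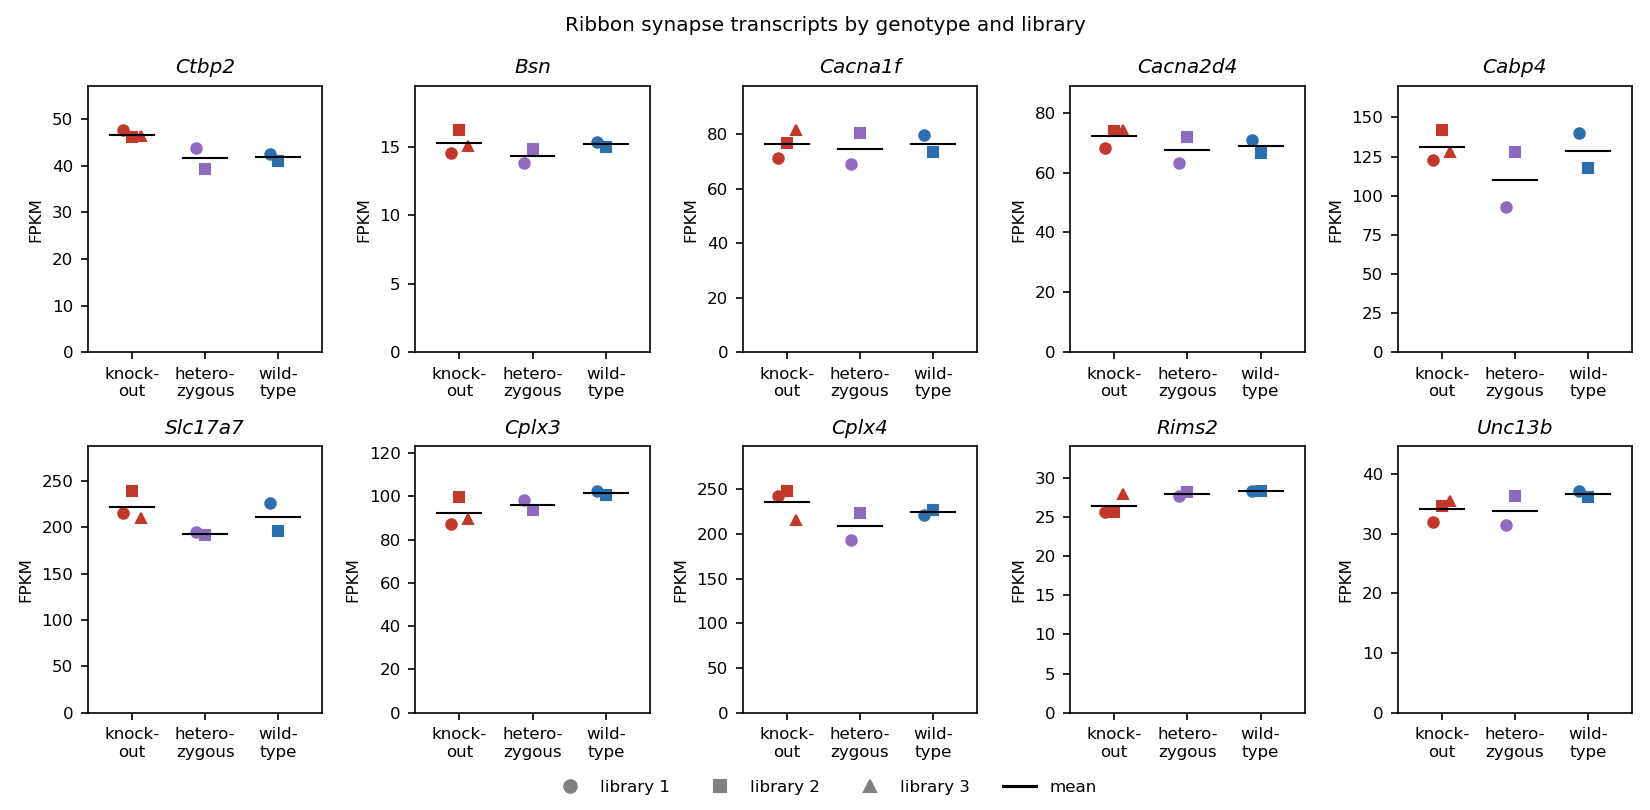
FPKM of each of the 10 members (vertical axes, from 0) in knockout, heterozygous and wildtype libraries, with 1 symbol per library number and a bar at the mean of each genotype. Only Ctbp2 has all 3 knockout libraries (46.1 to 47.6 FPKM) above all 4 controls (39.2 to 43.9 FPKM).

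Among the scaffold genes Ctbp2 (chr7:132987563-133124354, minus strand, GRCm38) stood highest in knockout libraries. It was at 47.6, 46.1 and 46.4 FPKM in knockout, 43.9 and 39.2 FPKM in heterozygous and 42.6 and 41.1 FPKM in wildtype libraries. The knockout libraries lay above all controls without overlap. The log2 change was 0.15 ± 0.07 (SE) against wildtype (limma, adjusted p = 0.673), 0.17 ± 0.07 against heterozygous (adjusted p = 0.397) and 0.16 ± 0.05 against all controls (adjusted p = 0.293). Against heterozygous it was 0.087 without heterozygous 2 and 0.25 without heterozygous 1. The group means were 46.7 ± 0.775 FPKM in knockout (SD, n = 3), 41.6 ± 3.30 FPKM in heterozygous (n = 2) and 41.8 ± 1.06 FPKM in wildtype libraries (n = 2). Of all tested genes 6.75% had every knockout library above every control, 13.5% above both wildtype and 15.3% above both heterozygous libraries. On the TPM scale, where the median gene moved by -0.16 for knockout against wildtype and by -0.12 against all controls, the Ctbp2 change was -0.0056 for knockout against wildtype and 0.04 against all controls. Centred on the rod markers it was 0.22 against wildtype and 0.21 against all controls (limma, adjusted p = 0.486 and 0.198). Exons of Fgfr2 cover 5.05% of the Ctbp2 exons.

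Bsn (chr9:108096022-108190384, minus strand) encodes Bassoon, the large scaffold protein that anchors the ribbon to the active zone. Its level was 14.6, 16.2 and 15.0 FPKM in knockout, 13.8 and 14.8 FPKM in heterozygous and 15.3 and 15.0 FPKM in wildtype libraries. Knockout libraries lay on both sides of the wildtype ones, and its log2 change against wildtype was 0.01 ± 0.07 (SE; adjusted p = 0.987 in limma).

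Rims2 (chr15:39198261-39684372, plus strand), which encodes the RIM protein that links vesicles to calcium channels, and Unc13b (chr4:43058953-43264871, plus strand), which encodes the priming factor Munc13-2, were lower in knockout than in wildtype libraries without passing. Rims2 was at 25.6, 25.7 and 28.0 FPKM in knockout, 27.7 and 28.2 FPKM in heterozygous and 28.4 and 28.3 FPKM in wildtype libraries. The knockout libraries lay below both wildtype ones, and knockout 3 lay within the heterozygous range. The change against wildtype was -0.10 ± 0.06 (SE; limma, adjusted p = 0.788). Unc13b was at 32.0, 34.7 and 35.5 FPKM in knockout, 31.4 and 36.3 FPKM in heterozygous and 37.2 and 36.2 FPKM in wildtype libraries. Here too every knockout library lay below both wildtype ones, while the heterozygous libraries spanned the knockout range, and the change against wildtype was -0.11 ± 0.08 (limma, adjusted p = 0.832). With Cplx3, 3 of 10 members lay lower in knockout than in wildtype without overlap, beside 14.7% of all tested genes. None of the 10 lay below the heterozygous libraries (14.5% of all genes) or below all controls (6.26%).

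The calcium channel genes were close to level across genotypes. Cacna1f (chrX:7607083-7635196, plus strand), the gene of the pore subunit Cav1.4, was at 71.3, 76.7 and 81.4 FPKM in knockout, 69.0 and 80.4 FPKM in heterozygous and 79.8 and 73.4 FPKM in wildtype libraries. The 3 genotypes overlapped, and the change for knockout against wildtype was -0.00 ± 0.09 (SE; limma, adjusted p = 0.997). The libraries without Y-linked RNA, knockout 3 and wildtype 2, held the highest knockout and the lower wildtype value of this gene.

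Cacna2d4 (chr6:119236526-119352407, plus strand), the gene of the α2δ-4 subunit that accompanies Cav1.4 in photoreceptors, was at 68.4, 73.8 and 74.1 FPKM in knockout, 63.1 and 71.9 FPKM in heterozygous and 71.0 and 66.5 FPKM in wildtype libraries. The genotypes overlapped, with a change of 0.07 ± 0.08 (SE) for knockout against wildtype (limma, adjusted p = 0.886). Cabp4 (chr19:4135423-4144033, minus strand) encodes a calcium binding protein that sits on Cav1.4 and sets its voltage range. It was at 123, 142 and 128 FPKM in knockout, 92.5 and 128 FPKM in heterozygous and 140 and 118 FPKM in wildtype libraries.

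Cabp4 was the most variable member, with a coefficient of variation of 13.2% over the 7 libraries. Its lowest value was that of heterozygous 1, and its change was 0.03 ± 0.15 (SE) for knockout against wildtype (limma, adjusted p = 0.979) and 0.26 ± 0.15 against heterozygous (adjusted p = 0.518). Without heterozygous 1 the change against heterozygous was 0.03. Exons of Gpr152 on the opposite strand cover 3.72% of the Cabp4 exons, and the libraries carry no strand.

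Slc17a7 (chr7:45163949-45176142, plus strand) encodes VGLUT1, the transporter that fills vesicles with glutamate in photoreceptors and bipolar cells. It was at 215, 239 and 210 FPKM in knockout, 195 and 191 FPKM in heterozygous and 226 and 196 FPKM in wildtype libraries. Knockout libraries lay above both heterozygous ones and overlapped with wildtype. The changes were 0.19 ± 0.09 (SE) against heterozygous (limma, adjusted p = 0.442) and 0.07 ± 0.09 against wildtype (adjusted p = 0.892). On the TPM scale Slc17a7 was at -0.092 against wildtype, above the median gene at -0.16.

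The 2 complexin genes of ribbon synapses had changes of opposite sign against wildtype, and neither passed. On the TPM scale Cplx4 was at -0.094 and Cplx3 at -0.31, on either side of the median gene at -0.16. Cplx4, used by rods among other cells, was at 243, 248 and 216 FPKM in knockout, 193 and 223 FPKM in heterozygous and 221 and 227 FPKM in wildtype libraries. Knockout 3 lay below both wildtype libraries and the other knockout libraries above them, a change of 0.07 ± 0.09 (SE; limma, adjusted p = 0.899). Cplx3 (chr9:57599992-57606281, minus strand), which is also found in cones, bipolar cells and amacrine cells, was at 87.3, 99.5 and 89.7 FPKM in knockout, 98.2 and 93.6 FPKM in heterozygous and 103 and 101 FPKM in wildtype libraries. Every knockout library lay below both wildtype ones, a change of -0.14 ± 0.07 (limma, adjusted p = 0.75), and knockout 2 lay above both heterozygous libraries. Markers of amacrine cells summed to 210 to 223 FPKM in knockout, 199 and 260 FPKM in heterozygous and 240 and 245 FPKM in wildtype libraries, and those of cones stood as given above. Their part in the Cplx3 values was not tested.

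**Figure D2:**
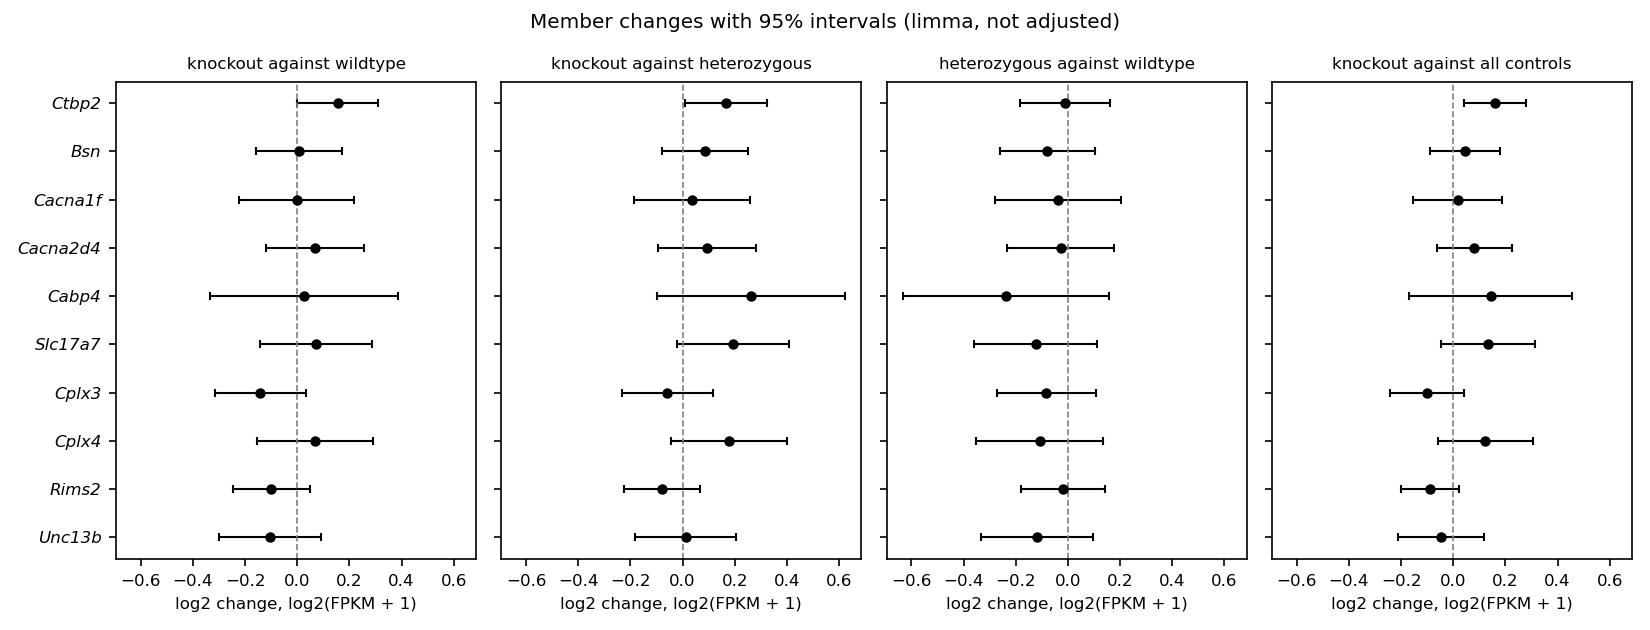
Log2 change of each member (horizontal axis, on log2(FPKM + 1)) in the 4 comparisons, as limma estimates with 95% intervals that are not adjusted. Nearly all intervals cross 0; those of Ctbp2 lie above it for knockout against heterozygous (0.01 to 0.32) and against all controls (0.04 to 0.28), where the adjusted p were 0.397 and 0.293.

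The ratio of the 2 complexins within a library does not depend on library scaling. The Cplx3 to Cplx4 ratio of FPKM was 0.360, 0.401 and 0.416 in knockout, 0.508 and 0.419 in heterozygous and 0.463 and 0.444 in wildtype libraries. All knockout values lay below all controls, though knockout 3 and heterozygous 2 nearly met. The difference in the log2 ratio was -0.22 (exact permutation test, two-sided, p = 0.0571, the smallest that 3 against 4 libraries allow). It was -0.16 without knockout 1 and -0.11 without both lens-rich libraries. This was 1 of 4 ratios between members of like role, chosen after the levels had been seen, and the adjusted p was 0.229.

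The other 3 ratios overlapped between knockout and control libraries. Cacna2d4 to Cacna1f stood at 0.943 ± 0.0292 in knockout (SD, n = 3) and 0.902 ± 0.0115 in controls (n = 4; exact permutation p = 0.114, adjusted p = 0.229). This ratio of an auxiliary subunit to its pore varied little, between 0.890 and 0.961 over all 7 libraries. Ctbp2 to Bsn was 3.07 ± 0.209 and 2.83 ± 0.235 in the knockout and control libraries (exact permutation p = 0.229, adjusted p = 0.305), and Rims2 to Unc13b was 0.776 ± 0.0323 and 0.801 ± 0.0543 (exact permutation p = 0.629, adjusted p = 0.629).

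Per length, Cplx4 and Slc17a7 were the most abundant members and Bsn the least. The means over the 7 libraries were 224 FPKM for Cplx4, 210 for Slc17a7, 124 for Cabp4, 95.9 for Cplx3, 76.0 for Cacna1f, 69.8 for Cacna2d4, 43.8 for Ctbp2, 34.8 for Unc13b, 27.4 for Rims2 and 15.0 for Bsn. Neighbours overlapped in range for 3 of the 9 steps in this order, namely Cplx4 with Slc17a7, Cabp4 with Cplx3 and Cacna1f with Cacna2d4. Within libraries, Cplx4 exceeded Slc17a7 in 5 of 7, Cabp4 exceeded Cplx3 in 6 of 7 and Cacna1f exceeded Cacna2d4 in 7 of 7. The other 6 steps held in all 7 libraries without overlap. The gene models of Cplx4 and Cabp4 behind the deposited values appear shorter than in GENCODE M21: whole reads came out with 1751 and 2862 exon bases, against 1941 and 3518.

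The median member varied less than the median tested gene, and the lens-rich heterozygous library held many of the members' lowest values. Coefficients of variation of the members over the 7 libraries ran from 4.49% for Rims2 to 13.2% for Cabp4, with a median of 6.43%. The median over all tested genes was 10.8%. Those genes include all with a mean of at least 1 FPKM, while the members averaged 15.0 to 224 FPKM. Genes of like level were not compared. Heterozygous 1 was the lowest library for 6 of the 10 (Bsn, Cacna1f, Cacna2d4, Cabp4, Cplx4 and Unc13b), and it was the lowest for 23.4% of all tested genes. A knockout library was the highest for 7 of the 10, and for 42.4% of all tested genes. Knockout 1, which held still more lens RNA, was the lowest library for Cplx3 and Rims2. The part of lens tissue in these values was not tested.

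For heterozygous against wildtype, a comparison of 2 libraries with 2, all 10 members had a negative log2 change, and 0 passed. The changes ran from -0.24 to -0.01 with a median of -0.08, where 52.2% of all tested genes were negative with a median of -0.01. In 4 of 10 members (Bsn, Slc17a7, Cplx3 and Rims2) both heterozygous libraries lay below both wildtype ones, beside 15.7% of all tested genes, and in 0 of 10 above (14.3%). Without heterozygous 1, Cacna1f and Cacna2d4 turned positive, at 0.07 each, and Cabp4 was at -0.01 in place of -0.24. The member with the lowest adjusted p in this comparison was at 0.974.

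The members were also set against the rod markers of the same library. The mean log2 level of the 10 members minus that of the 20 rod markers was -2.40, -2.27 and -2.28 in knockout, -2.46 and -2.41 in heterozygous and -2.37 and -2.39 in wildtype libraries. Knockout 2 and 3 lay above every control, and knockout 1 lay within the controls. With each library centred on its rod markers, the median gene stood at 0.06 for knockout against wildtype, and 0 of 10 members were called in each of the 4 comparisons. Of the rod markers themselves 0 of 20 were called for knockout against wildtype, with a median change of -0.08. Of these, 2 had an unadjusted p under 0.05, beside 7.50% of all tested genes. All knockout libraries lay below both wildtype ones for 10 of the 20 (14.7% of all genes) and above for 1 (13.5%). They lay below all controls for 9 (6.26%) and above for 1 (6.75%), with a smallest adjusted p of 0.0591 (limma). The part of this lower rod level in the differences above was not tested. None of the 12 cone markers was called for knockout against wildtype either, with a median of -0.14 and 3 at an unadjusted p under 0.05 (7.50%).

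**Figure D3:**
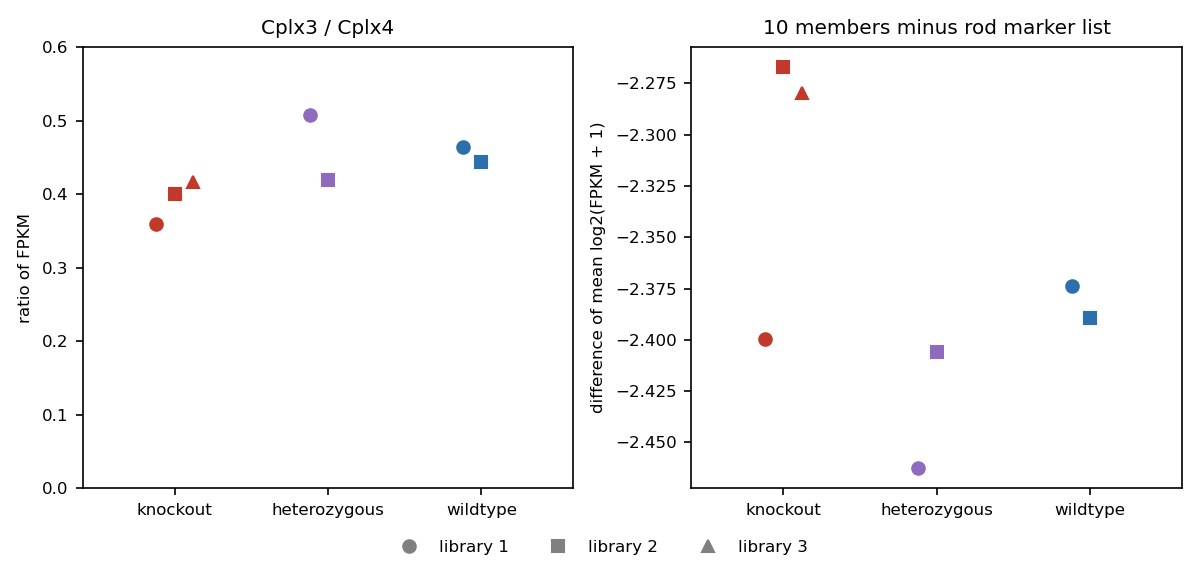
Left, the ratio of Cplx3 to Cplx4 FPKM by library, with the vertical axis from 0; right, the mean log2(FPKM + 1) of the 10 members minus that of the rod marker list, on an axis that does not start at 0. Knockout ratios lie between 0.360 and 0.416 and control ratios between 0.419 and 0.508; on the right knockout 2 and 3 lie above every control and knockout 1 among them.

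The wider machinery of the terminal was examined as 6 lists of further genes, and 1 gene among them was called. Of 17 tested genes of the ribbon and active zone, 20 of calcium entry, 30 of vesicles and fusion, 22 of vesicle retrieval and 19 of the synaptic cleft, limma called 0 in each of the 4 comparisons. The medians for knockout against wildtype were -0.02, -0.01, -0.09, -0.00 and -0.00. The unadjusted p was under 0.05 for 0, 0, 1, 1 and 2 of these genes in that comparison, beside 7.50% of all tested genes. For knockout against heterozygous it was under 0.05 for 6, 2, 5, 2 and 4 of them, beside 1859 of all 15472 tested genes, and for knockout against all controls for 2, 3, 3, 3 and 3, beside 12.2%.

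From the active zone and calcium entry lists, the 2 genes each with the smallest p for knockout against wildtype were as follows. Unc13c, a further member of the Munc13 family, was at 9.58, 10.4 and 10.6 FPKM in knockout, 13.7 and 11.9 FPKM in heterozygous and 11.1 and 12.1 FPKM in wildtype libraries. All knockout values were below all controls, with a change of -0.24 ± 0.08 (SE) against all controls (limma, adjusted p = 0.294). Cacna2d1, the gene of another α2δ subunit, was at 6.09 ± 0.146 FPKM in knockout (SD, n = 3) and 7.17 ± 0.508 FPKM in controls (n = 4), also without overlap (-0.20 ± 0.06 SE; limma, adjusted p = 0.293). Its relative Cacna2d3 was at 7.44, 8.37 and 8.86 FPKM in knockout, 8.83 and 9.42 FPKM in heterozygous and 9.52 and 9.49 FPKM in wildtype libraries. Knockout lay below wildtype and overlapped with heterozygous (limma, adjusted p = 0.697 against wildtype). The liprin gene Ppfia2 was at 9.57, 10.6 and 10.1 FPKM in knockout, 9.73 and 11.5 FPKM in heterozygous and 11.1 and 11.6 FPKM in wildtype libraries. It too overlapped with heterozygous (limma, adjusted p = 0.77 against wildtype), and exons of Acss3 on the opposite strand cover 22.3% of its exons. Other members of these families had changes of the other sign, such as Unc13a, named after its values were seen, at 0.23 against wildtype (limma, adjusted p = 0.774) and 0.30 against all controls (adjusted p = 0.353).

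Genes of fusion and retrieval also had no calls. Those named had the 2 smallest p of each list for knockout against wildtype, and each was lower in knockout. Other genes of these lists, named after their values were seen, had changes of the other sign. Against all controls Syngr3 was at 0.29 (limma, adjusted p = 0.373), Doc2b at 0.24 (adjusted p = 0.338) and Cltb at 0.19 (adjusted p = 0.416). Cplx1, a complexin of conventional synapses, was at 34.6, 41.6 and 36.0 FPKM in knockout, 44.4 and 33.6 FPKM in heterozygous and 47.9 and 45.7 FPKM in wildtype libraries. Its change was -0.32 ± 0.13 (SE) against wildtype (limma, adjusted p = 0.654), with knockout below wildtype and one heterozygous library below all others. Snap25, a SNARE protein of the plasma membrane, was at 122, 135 and 132 FPKM in knockout, 142 and 141 FPKM in heterozygous and 141 and 149 FPKM in wildtype libraries. Every knockout library lay below every control, a change of -0.14 ± 0.05 against all controls (limma, adjusted p = 0.354). In the vesicle and fusion list 14 of 30 genes had all knockout libraries below both wildtype ones, beside 14.7% of all tested genes. For 4 of 30 all knockout libraries lay below both heterozygous ones, beside 14.5%. Both heterozygous libraries lay below both wildtype ones for 10 of the 30, beside 15.7%, and above them for 1, beside 14.3%. Relative to wildtype the list median was -0.11 in heterozygous and -0.09 in knockout libraries, so the lower level was not confined to knockout. Knockout relative to heterozygous had a list median of 0.01. The amacrine markers given above and the ganglion cell markers, at 271 to 309 FPKM in sum in knockout, 285 and 297 FPKM in heterozygous and 313 and 320 FPKM in wildtype libraries, also stood lower in knockout than in wildtype libraries. Their part in the counts of this list was not tested.

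Among retrieval genes, Dnajc6, which encodes the clathrin uncoating factor auxilin, was at 33.4, 32.7 and 31.9 FPKM in knockout, 35.7 and 35.6 FPKM in heterozygous and 36.3 and 36.3 FPKM in wildtype libraries. The knockout values lay below all controls (-0.14 ± 0.04 SE; limma, adjusted p = 0.272 against all controls). Sh3gl2, the gene of endophilin A1, was at 32.3, 35.6 and 34.2 FPKM in knockout, 35.8 and 34.5 FPKM in heterozygous and 38.2 and 37.1 FPKM in wildtype libraries. Knockout lay below wildtype and overlapped with heterozygous (limma, adjusted p = 0.682 against wildtype).

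In the synaptic cleft, the named genes were Dmd, whose retinal dystrophin belongs to the complex that binds dystroglycan, and Lrit2, which encodes a leucine-rich repeat membrane protein. Lrit2 was at 73.7, 67.7 and 72.6 FPKM in knockout, 80.5 and 79.1 FPKM in heterozygous and 84.9 and 80.3 FPKM in wildtype libraries. Dmd was at 9.86, 9.93 and 11.8 FPKM in knockout, 12.7 and 13.1 FPKM in heterozygous and 12.3 and 13.2 FPKM in wildtype libraries. In both genes the knockout libraries lay below all controls, with changes against all controls of -0.18 ± 0.05 (SE) for Lrit2 and -0.27 ± 0.07 for Dmd (limma, adjusted p = 0.229 and 0.216). The cleft list as a whole had 3 of 19 genes higher and 2 lower than all controls without overlap, with a median of 0.06. Of all tested genes 6.75% lay higher and 6.26% lower in this way. Against heterozygous 7 of 19 lay higher (15.3% of all genes) and 2 lower (14.5%), with a median of 0.10. For heterozygous against wildtype 8 of 19 lay lower (15.7%) and 0 higher (14.3%), with a median of -0.12.

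The postsynaptic side, the mGluR6 cascade of ON bipolar cells, held the only called gene. Gnb3, the gene of a G protein beta subunit used by ON bipolar cells and by cones, was at 258, 265 and 230 FPKM in knockout, 116 and 125 FPKM in heterozygous and 137 and 126 FPKM in wildtype libraries. It rose by 0.99 ± 0.08 on the log2 scale against all controls (SE; limma, adjusted p = 0.0013), by 1.06 ± 0.08 against heterozygous (adjusted p = 0.00753) and by 0.92 ± 0.08 against wildtype (adjusted p = 0.0129). Against all controls it passed in every setting tried (adjusted p at most 0.0272). Against heterozygous the call was lost with the replicate block (adjusted p = 0.128, limma), without both lens-rich libraries (0.211) and without heterozygous 1 (0.0695). Against wildtype it was lost with the block (0.114), without both lens-rich libraries (0.137), on the TPM scale (0.0628) and without any 1 of knockout 1, knockout 2, wildtype 1 and wildtype 2 (0.0659 to 0.183), while the change itself stayed between 0.76 and 0.98. Of the 13 tested genes of this list, Gnb3 was the only one called in these 3 comparisons and 0 were called for heterozygous against wildtype. The list median was -0.08 for knockout against wildtype, and the receptor gene Grm6 (-0.10, adjusted p = 0.845) and the channel gene Trpm1 (0.04, adjusted p = 0.927), named after their values were seen, did not pass. Rgs9bp, which anchors a regulator of G protein signalling in photoreceptors, was at 132, 146 and 140 FPKM in knockout, 163 and 168 FPKM in heterozygous and 159 and 154 FPKM in wildtype libraries, all knockout values being lower (-0.21 ± 0.06 against all controls, adjusted p = 0.221).

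**Figure D4:**
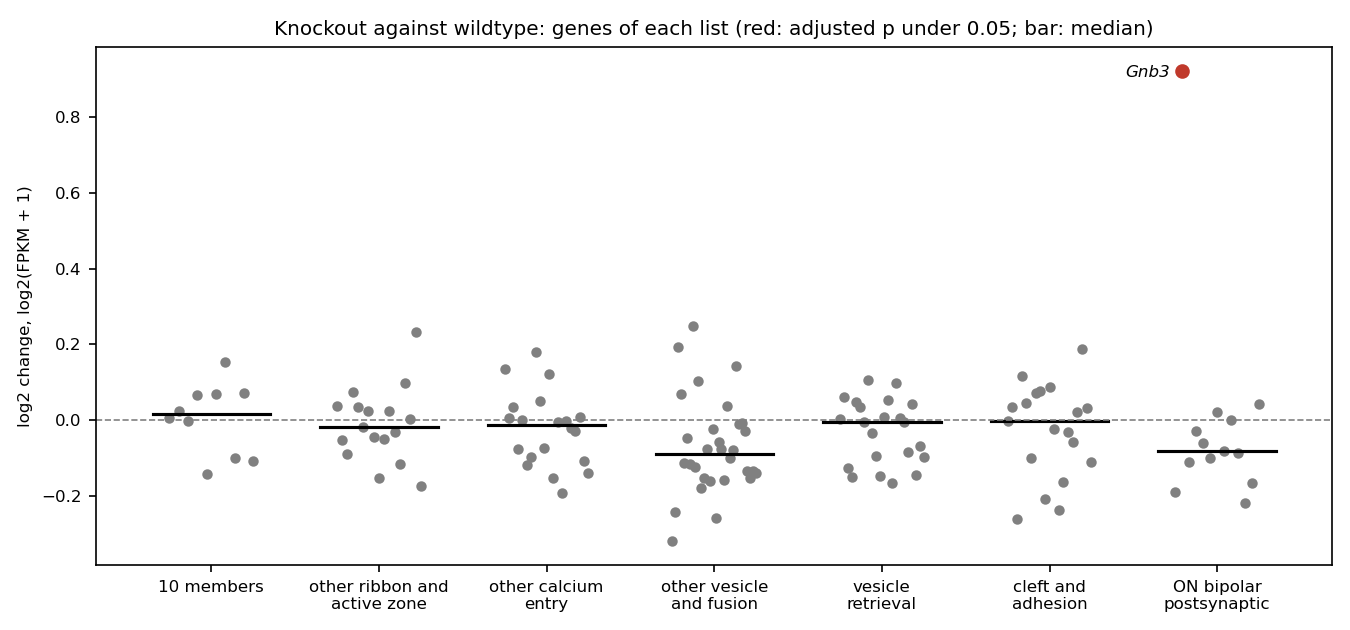
Log2 change for knockout against wildtype (vertical axis, on log2(FPKM + 1)) of the 10 members and of the tested genes of 6 further lists, with 1 point per gene, a bar at each median and red where the adjusted p was under 0.05. The members lie between -0.14 and 0.15, and Gnb3 at 0.92 is the only called gene.

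Genes of the reactive glia and microglia lists were called in these libraries. Both lists were chosen with earlier results of these data known, so their counts are descriptions and no test of enrichment. Whole tissue does not tell which cells held these RNAs. The 9 reactive glia genes summed to 142 to 171 FPKM in knockout and 27.5 to 38.0 FPKM in control libraries. For knockout against wildtype, where 0.323% of all tested genes were called in either direction, 7 of 9 were called higher. That count was 1 with the replicate block, 2 without both lens-rich libraries, 2 without wildtype 1 and 2 without wildtype 2, and between 5 and 8 in the other settings tried. The 10 microglia markers summed to 46.3 to 50.5 FPKM in knockout and 26.7 to 28.8 FPKM in controls, with 3 of 7 tested called higher for knockout against wildtype. That count was 0 on the TPM scale, with the replicate block, without both lens-rich libraries and without any 1 of knockout 1, knockout 2, wildtype 1 and wildtype 2, and 1 without knockout 3 or with the Y-linked covariate. Of 15 bipolar cell markers 0 were called, with 1 at an unadjusted p under 0.05 and a median of -0.08 for knockout against wildtype.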

How the data were processed

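Polyadenylated RNA of 7 mouse libraries was prepared with NEBNext Ultra, an unstranded chemistry, and sequenced. The authors deposited 1 table of FPKM, 1 column per library. TopHat2 2.0.9, Bowtie2 2.0.6, HTSeq and DESeq and the builds mm10 and GRCm38 appear in the submitters' processing notes; settings and annotation release are not given in the sources used here. From the deposited values, log2(FPKM + 1) was fitted, for genes averaging 1 FPKM or more, with limma 3.58.1 in R 4.3.3 (mean-variance trend, Benjamini-Hochberg adjustment, 0.05). A 3-genotype fit (4 residual degrees of freedom) gave 3 comparisons and a 2-group fit (5) gave knockout against all controls, which shares libraries with them. Whole reads came from GENCODE M21 exon lengths (54495 genes matched; 96.8% of values above 0 whole within 0.01) and served voom over 14797 genes; their counting intervals cover counting error only. The fitting was tested on simulated data. Members and lists were chosen with earlier results of these data known. Named were Agbl5, all members and, per pathway list, called genes and the 2 smallest p for knockout against wildtype. Alternatives were a pseudocount of 0.1, no filter, TPM, voom, the replicate block, a Y-linked covariate, rod centring and left-out libraries.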

Additional observations from a re-analysis of the deposited data

Results flagged for a closer look

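Among the 4 control libraries, 2 of the 10 members had a library far from the other 3, judged by the gap to the nearest value as a share of the whole range against Dixon's 95% critical value for 4 samples. Chance flags about 1 in 20 such groups. Slc17a7 in wildtype 1 (226 FPKM, against 191 to 196 FPKM in the other controls) had a share of 0.867. Cplx4 in heterozygous 1 (193 FPKM, against 221 to 227 FPKM) had a share of 0.838.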

How the results depend on the processing

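Under all alternatives tried 0 of 10 members were called in each comparison, and the smallest adjusted p of a member was 0.155, for Cabp4 for knockout against heterozygous without heterozygous 2. With 2 or 3 libraries a genotype, changes within the intervals of the report cannot be seen.

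The count of all called genes moved more. For knockout against wildtype it was 50, and 28 on the TPM scale, 33 with the Y-linked covariate, 76 with voom, 3 without both lens-rich libraries, 3 with the replicate block and 5 to 53 with 1 library left out (5 without wildtype 1 and 5 without wildtype 2, 19 without knockout 1 and 21 without knockout 2, 32 without knockout 3). For knockout against heterozygous it was 49, and 80 with voom, 0 without both lens-rich libraries, 0 with the replicate block and 14 to 40 with 1 left out (40 without heterozygous 2, 31 at most without any other). For knockout against all controls it was 95, and 63 on the TPM scale, 148 with voom, 48 without both lens-rich libraries, 38 with the replicate block and 45 to 90 with 1 left out (90 without heterozygous 1, 63 at most without any other). For heterozygous against wildtype it was 0, and 19 without a filter and 0 to 3 with 1 left out. The calls of Agbl5, Gnb3 and the reactive glia and microglia lists that went with these settings stand beside their values. Those runs were chosen after seeing the data. The causes were not tested, beyond fewer libraries or degrees of freedom in some fits.

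Of 600 alternative values of member changes 50 had the opposite sign, all of changes that were not called. On the TPM scale, where the median gene moved by -0.16 for knockout against wildtype, -0.12 against all controls and -0.07 against heterozygous, the changes against wildtype were -0.15 for Bsn, -0.14 for Cabp4, -0.095 for Cacna2d4, -0.094 for Cplx4, -0.0056 for Ctbp2 and -0.092 for Slc17a7. Against all controls they were -0.074 for Bsn, -0.11 for Cacna1f, -0.043 for Cacna2d4 and -0.0014 for Cplx4, and against heterozygous -0.049 for Cacna1f and -0.074 for Unc13b. With the replicate block Cacna1f was at -0.029 against all controls and -0.0096 against heterozygous, and Unc13b at -0.019 against heterozygous; the block changed no member's call, and knockout 3 has no partner in it. The numbers were not taken as pairs: same-numbered knockout and heterozygous libraries deviated together (r = 0.43 and 0.27), but knockout with wildtype (0.09 and -0.02) and heterozygous with wildtype (-0.02) did not. Without both lens-rich libraries Cacna1f was at 0.047 for knockout against wildtype, -0.023 for knockout against heterozygous and 0.070 for heterozygous against wildtype, Cacna2d4 at 0.065 for heterozygous against wildtype, and Cplx3 at 0.014 and Unc13b at -0.046 for knockout against heterozygous. Centred on rod markers Cacna1f was at 0.059 for knockout against wildtype, and Cacna2d4 at 0.0045, Ctbp2 at 0.020 and Rims2 at 0.012 for heterozygous against wildtype. With the Y-linked covariate Cacna1f was at 0.0018 for knockout against wildtype, Unc13b at -0.00080 for knockout against heterozygous and Rims2 at 0.016 for heterozygous against wildtype. With voom Unc13b was at -0.0051 for knockout against heterozygous and Ctbp2 at 0.0029 for heterozygous against wildtype. The causes were not tested.

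With 1 library left out, changes for knockout against wildtype ranged from -0.034 to 0.038 for Bsn, -0.099 to 0.15 for Cabp4, -0.062 to 0.057 for Cacna1f and -0.031 to 0.17 for Slc17a7. For knockout against heterozygous they ranged from -0.072 to 0.14 for Cacna1f and -0.090 to 0.11 for Unc13b, and for knockout against all controls from -0.029 to 0.066 for Cacna1f. For heterozygous against wildtype they ranged from -0.15 to 0.070 for Cacna1f, -0.12 to 0.065 for Cacna2d4 and -0.091 to 0.068 for Ctbp2. The log2 ratio of Rims2 to Unc13b ranged from -0.067 to 0.0034, in runs chosen after seeing the data.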
